A study of Mus musculus with 4 samples.

Results

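Genes of protein folding, export and quality control in the endoplasmic reticulum (ER) were measured in resting C2C12 myoblasts with and without Wnt3A. A list of 38 genes was fixed by name, and each gene was represented by the probe set of highest mean signal over the 4 arrays. Of the 38, 37 were found among the 12393 genes named by a probe set. Sec61g was not, because its probe set names several genes, and it was not analysed here. All 37 passed the filter on dim genes, which left out the dimmest 25% and kept 9295 genes for testing.

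The ER is where membrane and secreted proteins enter the export route. They pass through the Sec61 channel, fold with the help of chaperones such as BiP and of enzymes that form disulfide bonds, and leave in vesicles coated with COPII. Proteins that do not fold are sent back to the cytosol for destruction, which is called ER-associated degradation. When unfolded protein builds up, the membrane sensors IRE1, ATF6 and PERK raise the output of these genes, a programme known as the unfolded protein response. Myoblasts send collagens and other matrix proteins through this machinery.

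C2C12 is an established mouse myoblast line. All cells, controls included, were grown in 20% fetal calf serum and then held in semi-solid methyl cellulose for 48 hours, where they stop dividing and enter G0, a reversible resting state. The treatment label calls one group control and the other Wnt3A, a ligand that stabilises β-catenin, and only the titles of the second group name Wnt3A. The treatment protocol is the same text for all 4 arrays, controls included, and names purified Wnt3A at 50 ng/ml; the groups here follow the titles and treatment labels. Each group had 2 Affymetrix arrays, called biological replicates and numbered 1 and 2 in the labels, which do not say whether the cultures were started apart. P-values therefore measure the spread between these arrays, which may be technical. Signals were taken as log2 values, pairs of values are given with replicate 1 first, and differences are given as Wnt3A less control.

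The arrays were alike in most genes. Column medians lay between 4.15 and 4.22, and correlations between pairs of arrays over the tested genes ran from 0.936 to 0.978. All 6 myoblast markers, among them Myf5 and Des, were above the dim limit of 2.18 on every array. Markers of other cell types were mixed. Among those of fibroblasts, Col3a1 (11.73 to 12.37), Pdgfra (7.29 to 9.25) and Dcn (6.03 to 7.90) were above the limit on every array. Thy1 and Lum were below it. All 5 markers of differentiated muscle, among them Acta1 (9.59 to 11.27), were above it on every array. So were the 4 markers of proliferation that had a probe set. Of these Mki67 read 3.63 and 5.97 on the control arrays and 4.22 and 5.21 on the treated arrays. Col3a1 and Acta1 read higher than every myoblast marker on each array. Ptprc of leukocytes, Pecam1, Cdh5 and Tek of endothelium, and Adipoq and Cidec of fat cells were below the limit on every array. Kdr of endothelium (2.15 to 2.64) was below it only on Wnt3A replicate 2. Adgre1 of macrophages (1.96 to 2.30) was above it only on the replicate 2 arrays. Cd14 (6.16 to 7.54), Csf1r (3.26 to 5.19) and Cd68 (2.78 to 3.13) of macrophages were above it on every array. So were Pparg (2.30 to 4.35) and Fabp4 (2.26 to 3.91) of fat cells. Axin2, a direct target of Wnt signalling, read 3.25 and 3.21 on the control arrays and 5.13 and 6.14 on the treated arrays. Both treated arrays lay above both controls, as in 14.7% of tested genes. Its difference was 2.41 (SE 0.38), which did not pass the test (limma, adjusted p = 0.409). Wnt3A replicate 2 and control replicate 2 each stood apart in some measures. On Wnt3A replicate 2 the hybridization controls averaged 6.66, against 7.05 to 7.25 on the other arrays. Myod1 read 3.62 there, against 6.32 to 7.11. The probe sets for 18S ribosomal RNA averaged 10.42 and 7.21 on the control arrays and 10.46 and 9.40 on the treated arrays. They were lower on both replicate 2 arrays, and control replicate 2 stood farthest from the others.

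Across the 37 genes the differences between group means ran from -0.52 for Ssr2 to 1.01 for Edem1, and none passed the test. With Wnt3A 32 members were higher and 5 were lower, a share of 86.5% higher where 47.0% of all tested genes were, and the median difference was 0.19, against -0.02 over all tested genes. The threshold was an adjusted p of 0.05 in limma, and the background was 0.0% of tested genes higher and 0.0% lower. The 95% confidence interval lay between -1 and 1 for 14 members, so 2-fold differences were not excluded for the others. The lowest unadjusted p among members was 0.0524, for Edem1, so 0 members were under 0.05, against 5.68% of tested genes; adjusted values ran from 0.894 to 0.985. In 4 members both Wnt3A arrays lay above both control arrays (background 14.7%), and in 2 both lay below (background 19.8%). Fewer cells of a kind and less RNA per cell cannot be told apart in such bulk samples. With 2 arrays against 2, an exact permutation test of a single value cannot go below p = 0.333.

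**Figure D1:**
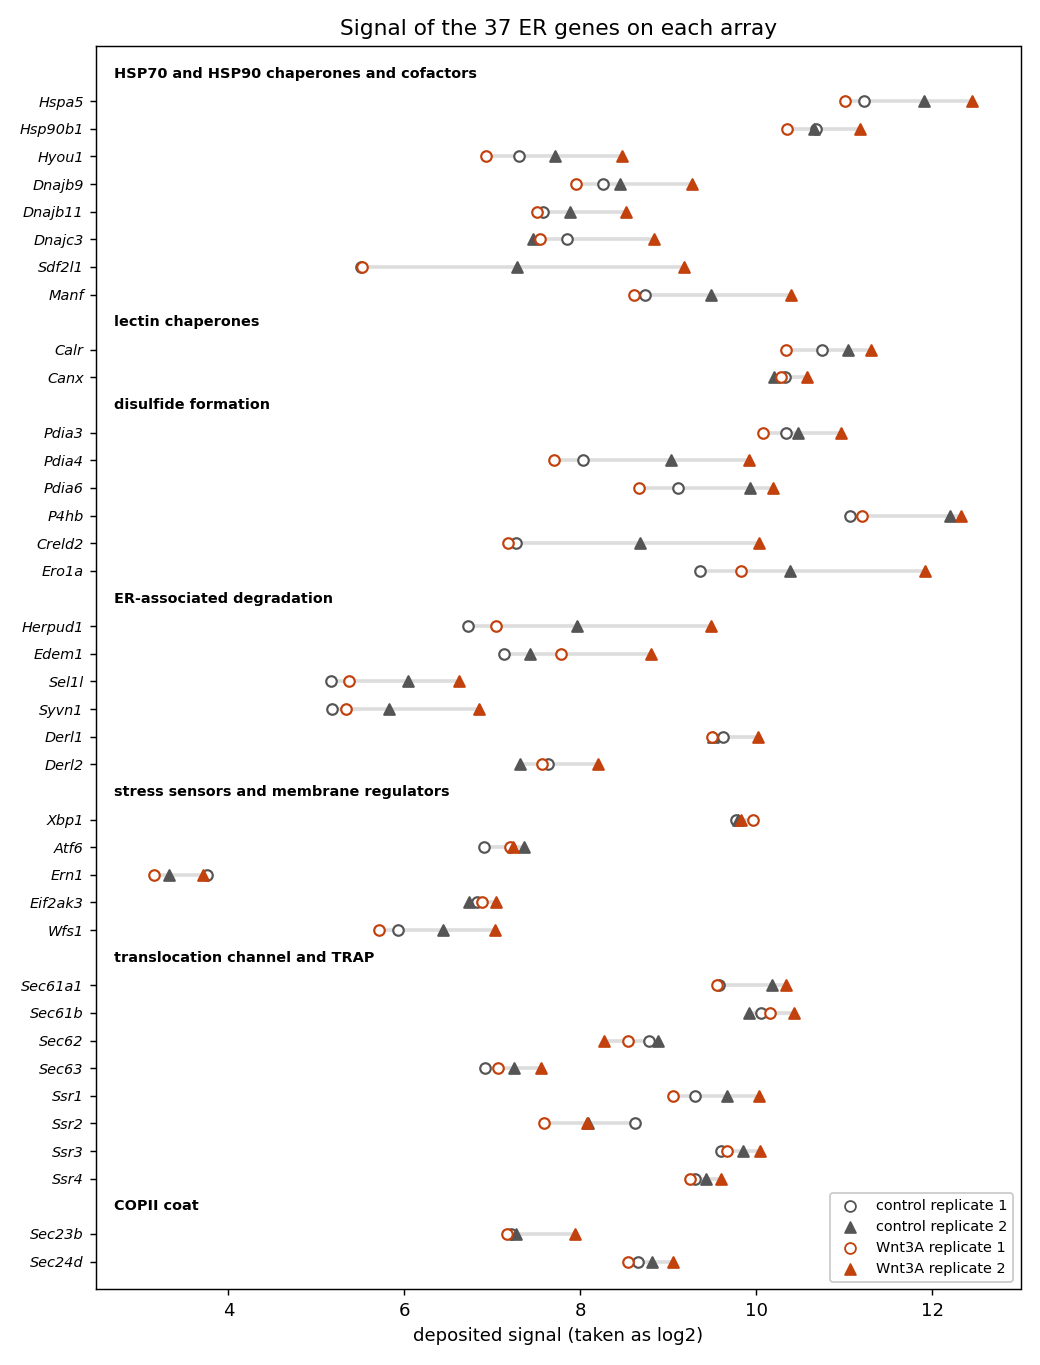
Deposited signal (taken as log2) of the 37 genes by role, with open circles for replicate 1 and filled triangles for replicate 2, grey for control and orange for Wnt3A. In 32 genes the highest of the 4 signals is that of Wnt3A replicate 2, against 32.4% of tested genes, and in 20 the lowest is that of Wnt3A replicate 1, against 24.0%.

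The ER stress element is the promoter sequence through which ATF6 and XBP1 act on many genes of this kind, together with the factor NF-Y. It is written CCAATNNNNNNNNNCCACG, where N is any base, and a second form is written ATTGGNCCACG. RefSeq promoters (GRCm38.p6, from 250 bases before to 50 bases after the start) were at hand for 32 members, with 34 promoters. On either strand, 8 of the 34 (23.5%) held the first form, against 0.119% of all 32851 promoters, and 2 (5.88%) held the second, against 0.0365%. The 5 letters CCAAT alone, which are part of the first form and whose reverse complement starts the second, were in 76.5% of member promoters and 37.4% of all. CCACG alone was in 67.6% and 32.8%. A match is a description of the letters and not proof of a site, and a promoter without one may have it outside this window.

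The element is shown in 8 members, so that promoters which share it can be set beside their array values, 5′ to 3′ on the gene's strand, with the outer 5 letters at each end of the element in capitals and 14 bases on each side. In Calr and Creld2 the element lies on the opposite strand, so that it reads CGTGG, 9 bases, ATTGG. Positions are chr2:34772011-34772057 on the plus strand for Hspa5, chr8:84847061-84847107 on the minus strand for Calr, chr11:50325786-50325832 on the minus strand for Canx, chr12:17266477-17266523 on the plus strand for Pdia6, and chr14:118937813-118937859 on the plus strand for Dnajc3. Creld2 is at chr15:88819506-88819552, Syvn1 at chr19:6046518-6046564 and Herpud1, which has the second form, at chr8:94386363-94386401, all on the plus strand. Hsp90b1, not shown, held 2 elements, and the second form in Dnajb11 lay from 8 to 18 bases after the start. In Hspa5 the element ran from 65 to 47 bases before the start, and in Syvn1 from 44 to 26.
Hspa5: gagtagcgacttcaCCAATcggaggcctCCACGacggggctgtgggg
Calr: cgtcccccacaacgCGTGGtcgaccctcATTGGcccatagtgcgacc
Canx: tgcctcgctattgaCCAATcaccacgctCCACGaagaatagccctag
Pdia6: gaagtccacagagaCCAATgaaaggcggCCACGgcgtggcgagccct
Dnajc3: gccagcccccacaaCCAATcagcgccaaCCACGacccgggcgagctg
Creld2: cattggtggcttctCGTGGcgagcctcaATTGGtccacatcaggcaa
Syvn1: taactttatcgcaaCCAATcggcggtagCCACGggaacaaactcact
Herpud1: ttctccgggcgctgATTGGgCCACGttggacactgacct

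The 8 chaperones of the HSP70 and HSP90 kind and their cofactors were all higher with Wnt3A by their means, and in none did the groups separate. That direction rested on Wnt3A replicate 2: without it all 8 were lower, with a median of -0.45 against 0.27 over all 4 arrays, and in replicate 1 alone 7 of the 8 were lower. Hspa5 encodes BiP, the HSP70 of the ER lumen and the classic readout of ER stress. It read 11.22 and 11.90 on the control arrays and 11.01 and 12.45 on the treated arrays, so the Wnt3A arrays lay on either side of both controls. Its difference was 0.17 (SE 0.54, 95% confidence interval -1.25 to 1.59). Hsp90b1, the gene of GRP94, read 10.68 and 10.66 on the control arrays and 10.35 and 11.18 on the treated arrays, a difference of 0.10 (SE 0.31). Here too the controls stood between the treated arrays.

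Sdf2l1, whose product works with BiP and its J-domain partners, had the widest range of any member, 5.50 and 7.28 on the control arrays and 5.52 and 9.17 on the treated arrays. The replicate 1 arrays were nearly equal, and both replicate 2 arrays were higher. Its difference of 0.96 carried an SE of 1.34. Dnajc3, the gene of the J-domain cochaperone p58IPK, read 7.85 and 7.46 on the control arrays and 7.54 and 8.83 on the treated arrays, a difference of 0.54 (SE 0.47). Its 5 probe sets above the dim limit gave differences from 0.02 to 0.54. Manf, a secreted stress protein that binds BiP, read 8.73 and 9.48, then 8.61 and 10.40. Of the other members Hyou1, the nucleotide exchange factor GRP170, differed by 0.19, and the J-domain genes Dnajb9 and Dnajb11 by 0.25 and 0.28.

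The lectin chaperones calreticulin and calnexin hold glycoproteins while they fold. Calr read 10.75 and 11.04 on the control arrays and 10.33 and 11.30 on the treated arrays, a difference of -0.08 (SE 0.36), and its 3 probe sets gave -0.08 to -0.06. Canx read 10.33 and 10.20, then 10.28 and 10.57, a difference of 0.16 (SE 0.19). For both, the replicate 1 Wnt3A array was below its control and the replicate 2 array above it.

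Of the 6 genes of disulfide formation 5 were higher by their means, and without Wnt3A replicate 2 all 6 were lower. The oxidase gene Ero1a had the largest difference. ERO1 passes oxidising power to the protein disulfide isomerases, and its gene is also known as a target of hypoxia. It read 9.36 and 10.38 on the control arrays and 9.82 and 11.92 on the treated arrays, so Wnt3A replicate 1 lay between the controls. The difference was 1.002, with an SE of 0.78 and a 95% confidence interval from -1.04 to 3.04 (limma, adjusted p = 0.930), and its 3 probe sets gave 0.80 to 1.17. Creld2, a stress-induced gene with isomerase activity, read 7.27 and 8.67, then 7.17 and 10.03, a difference of 0.63 (SE 1.06).

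Among the isomerases P4hb and Pdia3 had unlike patterns. P4hb, which encodes the founding protein disulfide isomerase, read 11.06 and 12.19 on the control arrays and 11.20 and 12.33 on the treated arrays. The replicates of a group differed by 1.14 and 1.13, while the treatment difference was 0.14 in replicate 1 and 0.13 in replicate 2. Pdia3 (ERp57, the partner of the lectin chaperones) read 10.33 and 10.47, then 10.08 and 10.96, so the controls differed by 0.14 and the treated arrays by 0.88, on either side of both controls. Its difference was -0.25 in replicate 1 and 0.48 in replicate 2, with a mean of 0.11. Pdia4 (ERp72) read 8.03 and 9.03, then 7.70 and 9.91, and Pdia6 differed by -0.09. A second, dimmer probe set of Pdia6 gave 0.60.

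The 6 genes of ER-associated degradation had the largest median difference of the role groups, 0.50, and all 6 were higher by their means. Without Wnt3A replicate 2 the median was -0.12, and 2 of the 6 were higher. Edem1 encodes a lectin that hands misfolded glycoproteins to degradation. It read 7.13 and 7.42 on the control arrays and 7.78 and 8.81 on the treated arrays, and both treated arrays were above both controls. The difference was 1.01, with an SE of 0.39 and a 95% confidence interval from -0.02 to 2.04 (limma, adjusted p = 0.894), and a second probe set gave 0.81. Herpud1, which helps to assemble the degradation complex, read 6.73 and 7.96, then 7.05 and 9.49, a difference of 0.92 (SE 0.91). Wnt3A replicate 1 lay between its controls.

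Syvn1 encodes HRD1, the ubiquitin ligase of this complex, and Sel1l its adaptor. Syvn1 read 5.18 and 5.83 on the control arrays and 5.34 and 6.85 on the treated arrays, a difference of 0.59 (SE 0.57), and Sel1l differed by 0.39 (SE 0.54). Derl1 and Derl2, the derlins of the retrotranslocation channel, differed by 0.19 and 0.41. In these 4 genes the groups overlapped, each with Wnt3A replicate 2 as the highest array.

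**Figure D2:**
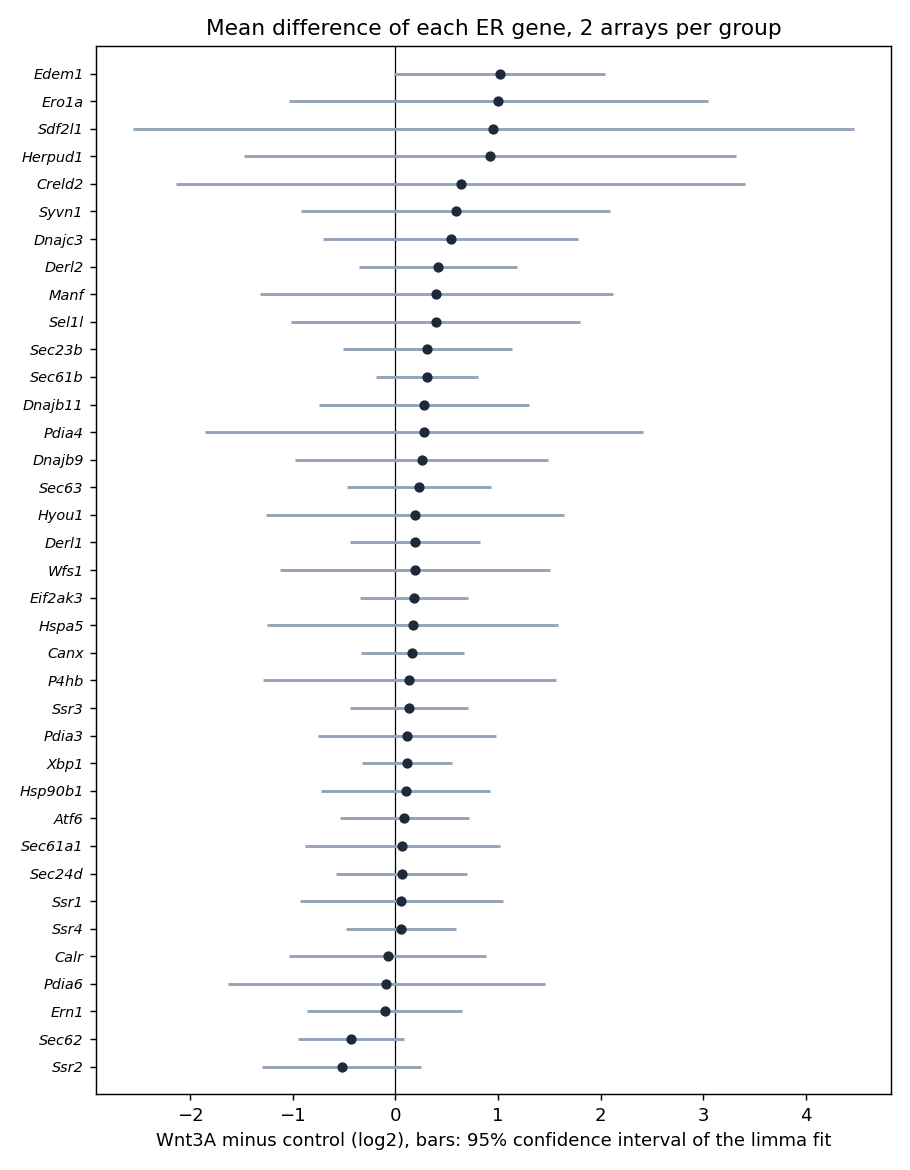
Wnt3A minus control for the 37 genes, ordered by size, as points on a log2 axis with the 95% confidence interval of the limma fit as bars. Every interval includes 0, from Ssr2 at -0.52 to Edem1 at 1.01, and the bars are widest for Sdf2l1 (-2.56 to 4.47) and Creld2 (-2.13 to 3.40).

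The 5 stress sensors and regulators had a median difference of 0.11. Xbp1, the transcription factor that IRE1 activates by splicing its mRNA, read 9.77 and 9.79 on the control arrays and 9.96 and 9.82 on the treated arrays. Both treated arrays were above both controls, by a margin that was small beside the SE of 0.17, and its 4 probe sets gave differences from -0.01 to 0.27. Splicing was not measured. Eif2ak3, the gene of PERK, which slows translation under stress, read 6.83 and 6.74, then 6.88 and 7.04, a difference of 0.18 (95% confidence interval -0.34 to 0.70); its groups did not overlap either. Atf6, the gene of the membrane-bound factor that is cut free under stress, read 6.90 and 7.35, then 7.20 and 7.23, with the treated arrays inside the range of the controls. Ern1, the gene of IRE1, was among the dimmer members at 3.76 and 3.32, then 3.16 and 3.71, a difference of -0.11 (SE 0.29). Wfs1, the gene of wolframin, an ER membrane protein, read 5.93 and 6.43, then 5.71 and 7.03, a difference of 0.19 (SE 0.50).

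Genes of the protein channel gave both signs. Sec62, which assists entry of proteins after their synthesis, read 8.78 and 8.89 on the control arrays and 8.54 and 8.27 on the treated arrays, below both controls on both arrays. Its difference was -0.43 (SE 0.20, 95% confidence interval -0.95 to 0.08), and its 4 probe sets gave -0.43 to -0.04. Sec61b, a small subunit of the channel, read 10.05 and 9.91, then 10.15 and 10.42, above both controls, with a difference of 0.31 (SE 0.19). The pore gene Sec61a1 differed by 0.07, but its 6 probe sets ranged from -0.07 to 1.23. Sec63, a J-domain partner of Sec62, differed by 0.23.

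The TRAP complex sits beside the channel, and Ssr1 to Ssr4 encode its subunits. Ssr2 read 8.62 and 8.09 on the control arrays and 7.59 and 8.08 on the treated arrays. Both treated arrays were below both controls, but replicate 2 was lower by 0.01 and replicate 1 by 1.04. Ssr1, Ssr3 and Ssr4 differed by 0.06, 0.13 and 0.05. Of the COPII coat genes, Sec23b read 7.21 and 7.27 on the control arrays and 7.16 and 7.94 on the treated arrays, with the controls between the treated arrays, and Sec24d differed by 0.06 (SE 0.24).

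Within each replicate number the members gave medians of opposite sign. In replicate 1, 13 members were higher with Wnt3A and 24 lower, 35.1% higher where 49.4% of tested genes were, and the median difference was -0.07. In replicate 2, 34 were higher and 3 lower, 91.9% where 46.8% of tested genes were, with a median of 0.51. Lower in replicate 1 and higher in replicate 2 were 22 of the 37 members, against 19.5% of tested genes, and 12 were higher in both, against 27.1%. These are single arrays set against single arrays, with no replicate check, and the labels do not tie arrays of one number together.

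By size, 7 members were at least 2-fold higher with Wnt3A in replicate 2 (background 3.83%) and 0 in replicate 1 (background 1.99%). They were Sdf2l1 (3.70-fold), Ero1a (2.90-fold), Herpud1 (2.88-fold), Edem1 (2.61-fold), Dnajc3 (2.60-fold), Creld2 (2.57-fold) and Syvn1 (2.03-fold). In replicate 1 the same genes differed by 0.02, 0.46, 0.32, 0.65, -0.30, -0.09 and 0.15 on the log2 scale. Of the 7, Edem1 and Ero1a had the largest values in replicate 1. The 5 probe sets of Dnajc3 gave 0.50 to 1.38 in replicate 2 on the log2 scale, so not all of them were 2-fold higher. Members were counted by the probe set of highest mean signal. Some dimmer probe sets of Sec61a1 (up to 2.27 on the log2 scale) were also at least 2-fold higher in replicate 2. So was a dimmer probe set of Hyou1 (1.77) and of Pdia6 (1.16). Without Wnt3A replicate 2 the median difference of the members was -0.30 and 7 were higher; without Wnt3A replicate 1 it was 0.67 and 35 were higher. Without control replicate 1 it was 0.04 with 21 higher, and without control replicate 2 it was 0.34 with 34 higher.

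**Figure D3:**
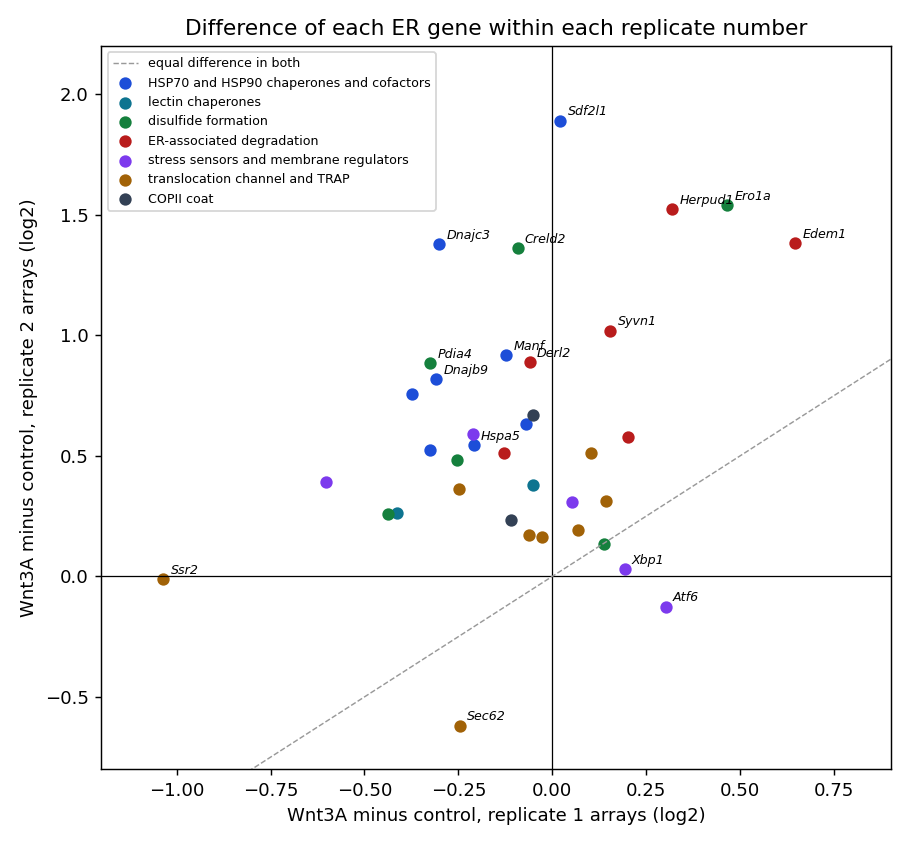
Wnt3A minus control (log2) within replicate 1 (horizontal) and within replicate 2 (vertical) for the 37 genes, coloured by role, with a dashed line where both are equal. Of the 37 points 33 lie above the line, and Sdf2l1, at 0.02 and 1.89, is the highest.

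The replicate number also separated the untreated arrays. Control replicate 2 was above control replicate 1 in 28 members (75.7%, against 58.4% of tested genes), by a median of 0.29. Wnt3A replicate 2 was above Wnt3A replicate 1 in 35 members (94.6%, against 52.8%), by a median of 0.97. The largest gaps between controls were those of Sdf2l1 (1.78), Creld2 (1.41), Herpud1 (1.24), P4hb (1.14), Ero1a (1.02) and Pdia4 (1.005). With Wnt3A the gaps of these genes were 3.65, 2.86, 2.44, 1.13, 2.10 and 2.21. P4hb is the exception among them, with gaps of the same size in both groups.

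Other measures also set single arrays, replicate numbers or groups apart. The log2 signals of 5 markers of differentiated muscle were summed. The sums were 39.29 and 45.79 on the control arrays and 37.69 and 34.72 on the treated arrays. They were highest on control replicate 2 and lowest on Wnt3A replicate 2. For the 6 myoblast markers the sums were 41.15 and 42.42, then 43.38 and 38.22. Among other cell types the sums differed most between groups for fibroblast and fat cell genes, and those of macrophage genes overlapped. The sums were 7.31 and 7.01, then 6.60 and 6.73, for 4 endothelial genes, of which 1 was above the dim limit. For 5 macrophage genes, of which 3 were above it, they were 16.85 and 17.05, then 15.97 and 18.11, a mean difference of 0.09. The 5 fibroblast genes, 3 of them above the limit, summed to 32.75 and 32.10, then 29.47 and 29.20, and 4 fat cell genes, 2 above it, to 11.07 and 9.90, then 7.21 and 7.47. The mean sum differed between groups by -6.34 for differentiated muscle, -3.09 for fibroblast genes, -3.15 for fat cell genes and -0.99 for myoblast markers. For the differentiated muscle, fibroblast, fat cell and endothelial lists the sums on both treated arrays were below those on both controls. In all 5 differentiated muscle genes both treated arrays were below both controls (background 19.8%). For 4 genes of proliferation the sums were 20.79 and 24.94, then 21.23 and 23.08, higher on the replicate 2 array of each group. The gap between the 3′ and 5′ probe sets of β-actin was 0.70 and 0.93 on the control arrays and 0.80 and 0.89 on the treated arrays, wider in replicate 2 of each group. For Gapdh the gap was 0.092 and 0.313, then 0.157 and 0.158, wider in replicate 2 of the controls and about equal in the treated arrays. The part of these measures, and of the lower hybridization controls, in the members' values was not tested.

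Members with and without an ER stress element were compared as a description. The 10 measured members with either form had a median difference of 0.22, of -0.15 in replicate 1 and of 0.59 in replicate 2, where all 10 were higher with Wnt3A. The 21 with neither had 0.19, -0.05 and 0.48, with 20 higher in replicate 2. Within the 10, the replicate 2 difference ran from 0.26 for Calr and Pdia6 to 1.52 for Herpud1. Sdf2l1, Ero1a and Edem1, which were among the widest in replicate 2, held neither form of the full element in their windows.

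The remaining genes of the pathway, 121 tested from 7 lists, included 62 that were higher, with a median difference of 0.01. None passed in limma in either direction. At an unadjusted limma p under 0.05 there were 1 higher and 5 lower. Of all 9295 tested genes, 229 were higher and 299 lower at that limit, 5.68% for both directions together. In the PERK arm 10 of 12 genes tested were higher, the median was -0.25 in replicate 1 and 1.16 in replicate 2, and in 11 the highest array was Wnt3A replicate 2. Without that array 2 of the 12 were higher, with a median of -0.42. Nupr1, a stress-induced nuclear protein gene, read 8.16 and 9.20 on the control arrays and 9.24 and 10.83 on the treated arrays, above both controls on both arrays, with a difference of 1.35 (SE 0.64). Cebpb, a transcription factor gene, read 10.67 and 10.33, then 10.23 and 9.96, and was the 1 gene of the arm that was not highest there. Chosen after their values were seen, Ddit3, the gene of CHOP, read 7.22 and 8.04, then 7.34 and 9.98, and Trib3, a target of ATF4, read 4.46 and 6.85, then 4.80 and 8.82. Both repeated the order seen for Sdf2l1, with the replicate 1 arrays close together and Wnt3A replicate 2 on top.

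Of 21 other folding enzymes tested, 15 were lower with Wnt3A by their means, where 53.0% of all tested genes were, and the median was -0.22. In 10 of them both treated arrays were below both controls (background 19.8%). Qsox1, a sulfhydryl oxidase gene, read 7.63 and 8.07 on the control arrays and 7.13 and 6.81 on the treated arrays, a difference of -0.88 (SE 0.26), and Sil1, an exchange factor of BiP, differed by -0.65 (SE 0.21). Among 14 genes of membrane-bound factors and ER calcium the median was -0.20. Rcn3, a calcium-binding protein gene of the secretory pathway, read 8.95 and 8.87, then 7.91 and 7.37, a difference of -1.27 (SE 0.25, adjusted p = 0.498 in limma), and Nucb1, also of a calcium-binding protein, differed by -0.57.

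The other lists had medians from -0.04 to 0.14, where the members had 0.19 and all tested genes -0.02. For 18 genes of N-glycosylation it was 0.05, with Dpm1, which makes a mannose donor, at -0.58 and Ganab, a glucosidase gene, at -0.41. For 13 genes of signal recognition and signal peptidase it was 0.14, and 0.40 in replicate 2, where the members had 0.51. Here the peptidase gene Sec11c read 6.28 and 6.91 on the control arrays and 7.38 and 8.63 on the treated arrays, a difference of 1.41 (SE 0.49), and Spcs1 of the same enzyme read 10.56 and 10.58, then 10.13 and 10.15, a difference of -0.43 (SE 0.16). For 18 other genes of ER-associated degradation the median was 0.01, with the ubiquitin ligase gene Rnf5 at -0.42 and the lectin gene Os9 at -0.48. For 25 of transport between ER and Golgi it was -0.04, with Lman1, a cargo receptor gene, at -0.52 and Tmed10, of the p24 family of cargo receptors, at -0.31.

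**Figure D4:**
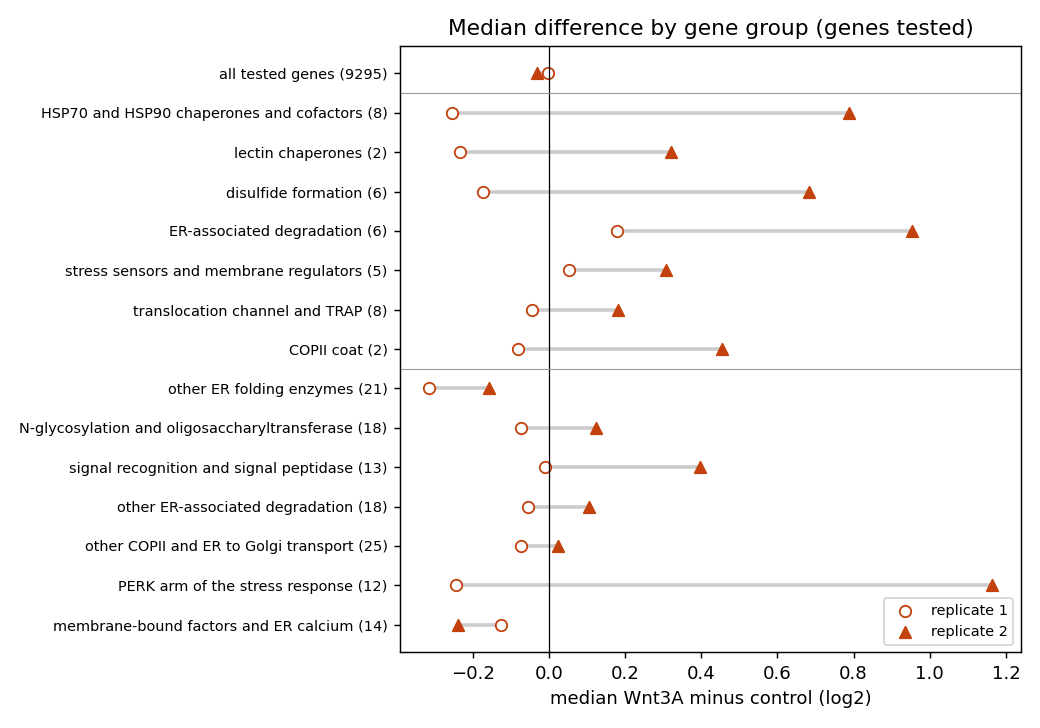
Median Wnt3A minus control (log2) within replicate 1 (open circles) and replicate 2 (triangles) for all tested genes, the role groups of the members and 7 lists of other pathway genes, with the number of genes tested. The medians lie farthest apart for the PERK arm (-0.25 and 1.16) and for the HSP70 and HSP90 chaperones (-0.25 and 0.79), and close to 0 for all tested genes.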

How the data were processed

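A table of 22690 probe sets on 4 arrays was deposited; per the submitters' processing notes GCOS and PLIER were used, with no version or role. How the signals were normalized, and on which build, is not given in the sources used here. Values as deposited ran from 0.50 to 13.23 and were read as log2 signals for that reason; another base would rescale every difference and fold. No detection calls came with them, and nothing was normalized again. The platform annotation gave 20380 probe sets with 1 gene symbol, updated by Entrez ID to RefSeq symbols of GRCm38.p6.

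Differences were fitted over all 9295 tested genes with limma 3.58.1 in R 4.3.3 (lmFit and eBayes with an intensity trend, group as the only term), two-sided, with Benjamini-Hochberg adjustment over all of them and a threshold of 0.05. Intervals are 95% intervals of that fit. The procedure was tested on simulated data, where it had to return the size of added differences. The simulated noise was independent on each array, without the correlation between same-numbered arrays that is given below. The members, lists and tests were chosen with earlier results of these data known. All members are named; of other lists the 2 genes of lowest p. The number of arrays limits the precision. Alternatives were the replicate block, other scalings, filters, probe set rules and variance models, and each array left out. Protein tails were not analysed here.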

Additional observations from a re-analysis of the deposited data

How the results depend on the processing

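No member passed an adjusted p of 0.05 in limma under any of the 12 alternatives, with a lowest adjusted p of 0.174 under the replicate block. The labels do not say that equal numbers mark paired arrays; deviations of same-numbered arrays from their group means correlated at 0.48. With the replicate number as a block 83 of all genes passed (0.893%) and 0 members; 3 of 37 members had an unadjusted p under 0.05, where 11.7% of tested genes did. Scaling to the 9 hybridization controls gave 108 genes past the threshold and leaving out the dimmer 50% gave 1, against 0; that scaling moved the median of all genes from -0.02 to 0.30 and that of the members to 0.51. It turned Calr to 0.24, Pdia6 to 0.23 and Ern1 to 0.21, and averaging all probe sets per gene turned Pdia6 to 0.26 and Ern1 to 0.014.

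With 1 array left out in turn the median difference of the members ran from -0.30 to 0.67 and the number higher from 7 to 35, with 0 genes past the threshold each time. The sign of 25 members turned without Wnt3A replicate 2, of 13 without control replicate 1, of 3 without Wnt3A replicate 1 and of 2 without control replicate 2. The lowest and highest values of these 29 members were those of Atf6 (-0.14 to 0.31), Calr (-0.56 to 0.41), Creld2 (-0.80 to 2.06), Derl1 (-0.072 to 0.46), Dnajb11 (-0.23 to 0.79), Dnajb9 (-0.41 to 0.92), Dnajc3 (-0.11 to 1.18), Ern1 (-0.38 to 0.17), Ero1a (-0.046 to 2.05), Herpud1 (-0.30 to 2.14), Hsp90b1 (-0.32 to 0.51), Hspa5 (-0.55 to 0.89), Hyou1 (-0.58 to 0.96), Manf (-0.50 to 1.29), P4hb (-0.43 to 0.70), Pdia3 (-0.32 to 0.55), Pdia4 (-0.83 to 1.39), Pdia6 (-0.85 to 0.67), Sdf2l1 (-0.87 to 2.78), Sec23b (-0.080 to 0.70), Sec24d (-0.19 to 0.32), Sec61a1 (-0.33 to 0.46), Sec63 (-0.020 to 0.48), Sel1l (-0.23 to 1.01), Ssr1 (-0.43 to 0.54), Ssr3 (-0.056 to 0.32), Ssr4 (-0.12 to 0.23), Syvn1 (-0.17 to 1.34), Wfs1 (-0.47 to 0.85). The other 8 kept their sign but not their size: Canx (0.015 to 0.31), Derl2 (0.095 to 0.73), Edem1 (0.50 to 1.53), Eif2ak3 (0.099 to 0.26), Sec61b (0.17 to 0.44), Xbp1 (0.041 to 0.18), Sec62 (-0.57 to -0.30) and Ssr2 (-0.79 to -0.26). The cause was not tested.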
